A study of Mus musculus with 22 samples.

Results

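The genes described here are 10 genes that mark meningeal fibroblasts, followed across biopsies of the mouse primary motor (M1) cortex: Dcn, Col1a1, Col1a2, Col3a1, Igfbp2, Slc6a13, Ogn, Igf2, Bgn and Serping1. They were taken by name as known markers of these cells, with earlier results of these data known, and all 10 were found among the 15297 genes of the deposited counts. The mutants were male BERKO mice on a C57BL/6 background, labelled ERb-/- that is, without a working estrogen receptor beta gene, and the controls were male WT mice of the same background; no other allele or treatment was labelled, and the animals were 16 to 20 weeks old. A right and a left needle biopsy of the M1 cortex came from each of 5 BERKO mice (replicates 2 to 6) and 6 WT mice (replicates 1 to 6), which gave 22 biopsies. Sides were paired by mouse from matching replicate numbers. The study asked how gene expression in the motor cortex differs between the genotypes, and the paired biopsies also allow the right side to be set against the left.

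Meningeal fibroblasts line the surface of the brain and the sheaths around its larger vessels. They lay down fibrillar collagen and the small proteoglycans that bind it, secrete growth factors and complement regulators into the cerebrospinal fluid, and carry transporters for organic solutes. Within the cortex they are few and lie around vessels. Because the samples are bulk tissue, fewer cells of a type and less RNA per cell cannot be told apart in any value below.

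Expression was read by single-cell tagged reverse transcription (STRT) sequencing of 10 ng of total RNA per biopsy, in which a barcode is added at the start of transcripts. Levels are given as CPM, the reads of a gene scaled to a common total of gene reads per biopsy. Gene reads per biopsy ran from 239058 to 948140 with a median of 695508 in BERKO, and from 537922 to 1893400 with a median of 1079927 in WT. The share of gene reads at upstream and 5′ UTR features was 73.1 to 80.5% (median 77.3%) in BERKO biopsies and 76.0 to 84.0% (median 80.8%) in WT biopsies. Depth and read position thus moved with genotype, and their part in the values below was not tested. The 10 genes held 5838 reads in all, between 92 and 527 per biopsy, and 3 reads, the limit that a count of 0 allows, stood for 1.43 to 12.2 CPM depending on the biopsy; this limit covers counting error only. The letters in the deposited column names, read as plate rows, placed BERKO and WT, and right and left within each, in different rows, so plate row cannot be told apart from genotype or side. Esr2, the gene that encodes the missing receptor, had 10 reads in 2 BERKO biopsies and 3 reads in 1 WT biopsy and was at 0 in the rest; a disrupted gene can still give transcripts, the labels do not say which part is deleted, and the reads are too few to check the genotype labels. Libraries of 3 WT biopsies, the right and left of replicate 1 and the left of replicate 2, stood apart from the other 19: Hap1, which encodes huntingtin-associated protein, was at 280.0 to 459.2 CPM in them and at 16.9 to 62.2 CPM elsewhere.

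The label was checked only for detection of its genes, which does not show what cells their reads came from. Dcn, Col1a1, Col1a2, Igfbp2, Igf2 and Serping1 had reads in all 22 biopsies, Slc6a13 was at 0 in 1, Col3a1 and Bgn were at 0 in 4 each, and Ogn was at 0 in 10. Of 40 further meningeal fibroblast genes listed, 38 were in the table, and 0 of these 38 were at 0 in every biopsy. The forkhead factors that specify the lineage were near the limit of detection: Foxc1 was at 0 in 16 biopsies and Foxd1 in 19. Lum, another collagen-binding proteoglycan, was at 0 in 12. The label thus rests on secreted products and transporters and not on the lineage regulators.

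**Figure D1:**
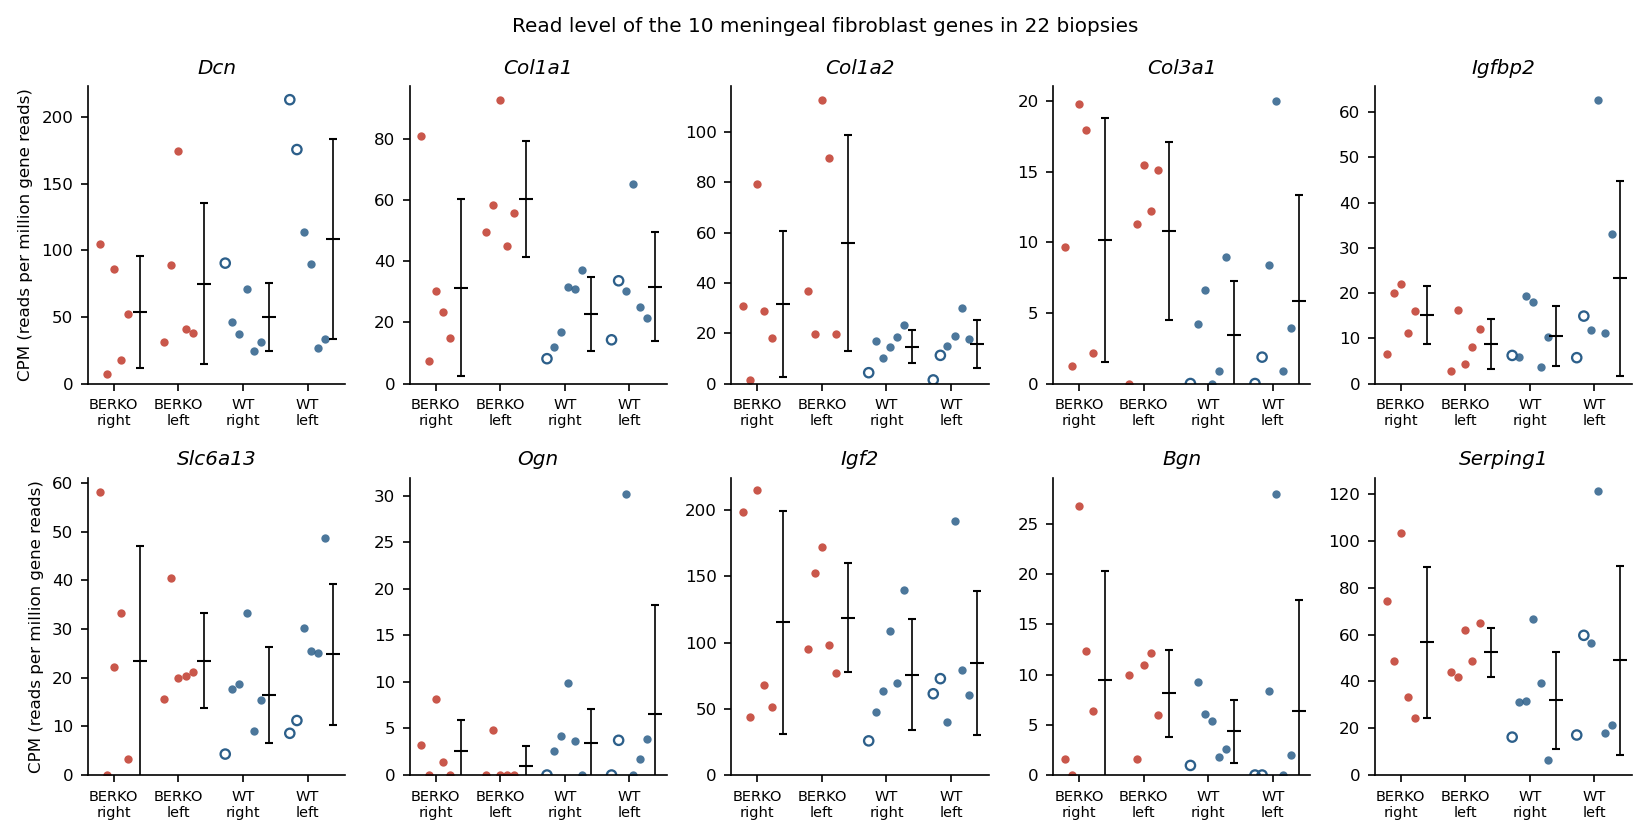
CPM (vertical axis, linear, starting at 0 in each panel) of each of the 10 genes in the 22 biopsies, by genotype and side; each point is a biopsy, open circles are the 3 WT libraries that stood apart, and the black bar beside each group is the mean with SD (n = 5 per BERKO group, n = 6 per WT group), cut off at 0. The groups overlap in every panel, and the BERKO left biopsies of Col1a1 run from 44.9 to 92.8 CPM, against 14.3 to 65.4 CPM in WT left biopsies.

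Most reads of these genes fell where transcripts start. Of the 5838 reads, 57.8% lay in upstream or 5′ UTR features, spread over 81 of 100 deposited features of the 10 genes. For Dcn, 85.6% of reads lay in a single 5′ UTR feature at chr10:96942244 (mm9, plus strand), for Col3a1 95.8% in one at chr1:45368475 (plus strand), for Bgn 85.5% in one at chrX:70728975 (plus strand) and for Col1a1 78.3% in one at chr11:94797566 (plus strand). Col1a2 was more scattered, with 33.7% of its reads in the 5′ UTR feature at chr6:4455701 (plus strand) and 11.5% in a coding feature at chr6:4489520. Slc6a13 had 64.3% of its reads in an upstream feature at chr6:121250305 (plus strand) and 23.3% in a coding feature at chr6:121286909, and Ogn had 73.8% in an upstream feature at chr13:49703415 (plus strand) and 26.2% in an intron feature. Serping1 differed, with 66.5% of its reads in an intron feature at chr2:84614998 (minus strand) and 20.6% in the 5′ UTR feature at chr2:84615523. Igfbp2 had 0 reads in upstream or 5′ UTR features, and its reads lay in coding and intron features, led by chr1:72871458 with 37.7%. Igf2, which has several promoters, had 42.3% of its reads in a 5′ UTR feature at chr7:149843385 (minus strand), 11.3% in a coding feature and 11.2% in a 3′ UTR feature.

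Promoters from RefSeq (build GRCm38.p6) were at hand for 7 of the 10 genes, 13 in all, and are shown here for Col1a2, Col3a1 and Bgn. These 3 genes have 1 listed promoter each, and the rank correlation of each pair of them over biopsies was above 0.5 with all biopsies included, as given further on with the values that leave out 3 libraries. Each run holds 100 bases before and 50 from the annotated start, 5′ to 3′, and capitals mark a CCAAT sequence, which reads ATTGG on the opposite strand. The build differs from the mm9 positions of the counted features, so the windows were not aligned with them.
Col1a2, chr6:4505518-4505667, plus strand: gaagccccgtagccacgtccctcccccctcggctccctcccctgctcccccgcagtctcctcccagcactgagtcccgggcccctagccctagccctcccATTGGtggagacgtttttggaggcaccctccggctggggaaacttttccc
Col3a1, chr1:45311438-45311587, plus strand: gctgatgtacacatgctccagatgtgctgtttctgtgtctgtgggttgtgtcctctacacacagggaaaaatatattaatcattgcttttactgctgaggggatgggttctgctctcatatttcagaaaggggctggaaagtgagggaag
Bgn, chrX:73483501-73483650, plus strand: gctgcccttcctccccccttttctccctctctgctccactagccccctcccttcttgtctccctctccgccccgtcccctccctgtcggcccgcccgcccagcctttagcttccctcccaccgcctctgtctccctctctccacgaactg
The motif searched as CCAAT or ATTGG, on both strands, occurred in 2 of the 13 promoters, that of Col1a2 above and 1 of Slc6a13, against 23.4% of 32851 mouse promoters cut to the same window. The motif TATAAA, or TTTATA on the other strand, occurred in 0 of the 13, against 6.94% of the 32851. The windows of Col3a1 and Bgn held neither.

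Of the genes tested, Col1a2 and Col3a1, both fibrillar collagens, had the largest fold differences between the genotypes, and 0 of the 3 collagens passed the test. Col1a2 and Col1a1 encode the chains of type I collagen, the main fibre of the meninges, and Col3a1 encodes the chain of type III collagen, which forms finer fibres beside it. In right biopsies of BERKO replicates 2 to 6 Col1a2 was at 30.7, 1.25, 79.2, 29.0 and 18.1 CPM, and in right biopsies of WT it ran from 4.30 through a median of 15.6 to 23.1 CPM. In left biopsies of BERKO replicates 2 to 6 it was at 36.9, 19.5, 112.7, 89.7 and 19.6 CPM, and in left biopsies of WT it ran from 1.43 through 16.3 to 30.2 CPM. Both biopsies of BERKO replicates 2 and 4 and the left one of BERKO replicate 5 lay above every WT biopsy, and the groups overlapped. The right biopsy of BERKO replicate 3 lay below every WT biopsy. It and the lowest WT biopsy, the left of replicate 1, had 1 read each, under the limit of 3 reads, so their order is uncertain. Summed per mouse, Col1a2 averaged 39.7 ± 31.9 CPM in BERKO and 15.4 ± 7.35 CPM in WT (SD, n = 5 and 6), with 3 of 5 BERKO mice above all WT mice. The log2 fold change was 1.37 ± 0.50 (SE), with an unadjusted p of 0.0128 and an adjusted p of 0.369 in edgeR's quasi-likelihood test with Benjamini-Hochberg adjustment over 9025 genes. It was 0.80 without BERKO replicate 4 (adjusted p = 0.643), and over all alternatives its adjusted p in edgeR and limma ran from 0.0811, with spike-in scaling, to 0.643.

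Col1a1 leaned the same way by less. In BERKO mice it averaged 41.6 ± 16.0 CPM and in WT mice 25.9 ± 12.3 CPM, and all 5 BERKO mice lay above the WT median while 2 lay above every WT mouse. Its log2 fold change was 0.70 ± 0.34 (SE), with an unadjusted p of 0.0498 and an adjusted p of 0.503 in edgeR. The left biopsies held most of this difference. In left biopsies of BERKO replicates 2 to 6 it was at 49.7, 58.4, 92.8, 44.9 and 55.7 CPM, and in left biopsies of WT the lowest, median and highest were 14.3, 27.6 and 65.4 CPM. In right biopsies of BERKO replicates 2 to 6 it was at 80.8, 7.48, 30.3, 23.5 and 14.9 CPM, against a lowest of 8.12, a median of 24.0 and a highest of 37.2 CPM in right biopsies of WT. On the left side 4 of the BERKO values lay between the WT median and the WT maximum and 1 above it, and on the right side the BERKO values spanned the whole WT range.

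Col3a1 was sparse, with 119 reads in all. In right biopsies of BERKO replicates 2 to 6 it was at 9.70, 1.25, 19.8, 18.0 and 2.13 CPM, against 0 to 8.99 CPM (median 2.57) in right biopsies of WT, and in left biopsies of BERKO it was at 0, 11.3, 15.5, 12.2 and 15.1 CPM, against 0 to 20.0 CPM (median 2.88) in left biopsies of WT. On the right 3 of 5 BERKO biopsies lay above every WT biopsy, on the left 0 of 5 did, and 1 was at 0 reads. Per mouse the means were 10.6 ± 6.50 CPM in BERKO and 4.46 ± 3.50 CPM in WT, with a log2 fold change of 1.25 ± 0.75 (SE; adjusted p = 0.582 in edgeR). A stretch of 141 bases of Col3a1 is identical in the annotated miRNA gene Gm47302 that lies within it.

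The collagen-binding proteoglycans differed between the genotypes by less than their spread, and those tested pointed in different directions. Dcn, decorin, limits the thickness of collagen fibrils, Bgn, biglycan, is its close relative, and Ogn, osteoglycin, is a smaller member of the same leucine-rich family. In right biopsies of BERKO replicates 2 to 6 Dcn was at 105.0, 7.48, 86.1, 18.0 and 52.2 CPM, against 24.7 to 90.3 CPM (median 41.7) in right biopsies of WT. In left biopsies of BERKO replicates 2 to 6 it was at 31.3, 89.2, 174.5, 40.8 and 37.7 CPM, against 26.8 to 212.9 CPM (median 101.4) in left biopsies of WT. The 2 highest biopsies of all were WT libraries that stood apart, the left of replicate 1 at 212.9 and the left of replicate 2 at 175.5 CPM, and the third of them, the right of replicate 1, was the highest of the right WT biopsies at 90.3 CPM. Dcn averaged 59.5 ± 35.5 CPM in BERKO mice and 68.4 ± 35.1 CPM in WT mice, a log2 difference of -0.20 ± 0.43 (SE; adjusted p = 0.913 in edgeR). Without the 3 libraries the log2 difference was 0.24, so its direction rests on them.

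In those libraries Dcn was high where Col1a2, Col3a1 and Bgn were low. While Dcn was at 90.3 to 212.9 CPM in the 3 libraries, Col1a2 was at 1.43 to 11.2, Col3a1 at 0 to 1.87 and Bgn at 0 to 0.955 CPM. Col1a1 was at 8.12 to 33.6 CPM in them, with the left of WT replicate 2 at 33.6 CPM, and had a median of 31.0 CPM in the other 19. In the other 19 libraries the medians were 40.8 CPM for Dcn, 19.5 for Col1a2, 8.40 for Col3a1 and 6.05 for Bgn. The sum of the other 9 genes was 65.9 to 209.1 CPM in the 3 libraries and 122.1 to 533.8 CPM in the other 19. Spearman's rho between Dcn and that sum, given as a description, was 0.22 over 22 biopsies, 0.81 over the 10 of BERKO, -0.09 over the 12 of WT and 0.65 over the 19 libraries. All points share the gene reads of their library as the denominator.

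**Figure D2:**
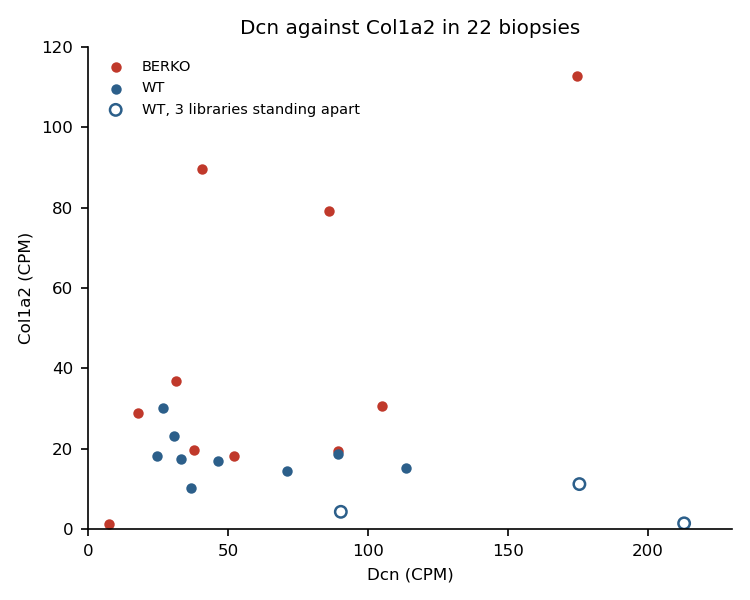
Dcn (horizontal axis, CPM) against Col1a2 (vertical axis, CPM) in 22 biopsies, red for BERKO, blue for WT, open circles for the 3 WT libraries that stood apart. The open circles lie at 90.3 to 212.9 CPM of Dcn and at 1.43 to 11.2 CPM of Col1a2, and the highest Col1a2 biopsy, the left of BERKO replicate 4, is at 174.5 CPM of Dcn and 112.7 CPM of Col1a2.

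Bgn and Ogn were near the limit of detection. Bgn ran from 0 to 26.8 CPM (median 6.40) in right biopsies of BERKO, against 0.955 to 9.28 (median 3.98) in right biopsies of WT, and from 1.62 to 12.2 (median 9.95) in left biopsies of BERKO, against 0 to 28.0 (median 0.974) in left biopsies of WT. Its log2 fold change per mouse was 0.81 ± 0.77 (SE; adjusted p = 0.764 in edgeR). Ogn, with 80 reads in all, did not pass the expression filter of any comparison. It was at 0 in 4 of 5 left biopsies of BERKO, and its highest value, 30.2 CPM, was in the left biopsy of WT replicate 3. Ogn overlaps Cenpp, a protein-coding gene on the opposite strand.

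The insulin-like growth factor genes of the meninges are a secreted growth factor and a protein that binds it. Igf2 is made mainly by the leptomeninges and choroid plexus in the adult brain, and Igfbp2 is made by these tissues and by astrocytes. In right biopsies of BERKO replicates 2 to 6 Igf2 was at 198.8, 43.6, 215.3, 67.7 and 51.2 CPM, against 25.8 to 140.0 CPM (median 66.5) in right biopsies of WT. In left biopsies of BERKO it was at 95.2, 152.4, 172.3, 97.9 and 76.8 CPM, against 40.3 to 192.2 CPM (median 67.1) in left biopsies of WT. All 5 BERKO left biopsies lay above the WT left median and below the WT left maximum. Igf2 averaged 115.3 ± 57.3 CPM in BERKO mice and 78.4 ± 41.0 CPM in WT mice, a log2 fold change of 0.57 ± 0.39 (SE; adjusted p = 0.653 in edgeR). Reads of Igf2 are uncertain where they lie in Gm49394, which shares 3598 identical bases with it on the same strand, and Igf2os runs on the opposite strand.

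Igfbp2 did not follow Igf2. It averaged 12.8 ± 5.46 CPM in BERKO mice and 15.7 ± 11.4 CPM in WT mice, a log2 difference of -0.27 ± 0.50 (SE; adjusted p = 0.894 in edgeR), and its highest biopsy was the left of WT replicate 4 at 62.7 CPM. Without WT replicate 4 the log2 difference was 0.17. In all 5 BERKO mice it was higher on the right, at 6.46, 19.9, 22.1, 11.1 and 16.0 CPM on the right and 2.84, 16.2, 4.42, 8.16 and 12.0 CPM on the left for replicates 2 to 6, while it was lower on the right in 4 of 6 WT mice. The left values of BERKO replicates 2, 4 and 5 rest on 2 reads each, under the limit of 3 reads that a count of 0 allows. Igfbp2 did not pass the expression filter of the test between the sides. The interaction of genotype and side was 1.79 ± 0.99 on the log2 scale (SE) and did not pass (unadjusted p = 0.0785, adjusted p = 0.998 in edgeR).

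The last pair are a membrane transporter and a plasma protease inhibitor. Slc6a13 takes up GABA and taurine and is carried in the brain by leptomeningeal cells, and Serping1 is the inhibitor of the complement protease C1. Slc6a13 averaged 23.2 ± 10.0 CPM in BERKO mice and 20.1 ± 9.35 CPM in WT mice (log2 0.21 ± 0.41, SE; adjusted p = 0.900 in edgeR). It ran from 0 to 58.2 CPM in right biopsies of BERKO, the widest span of the 4 groups, with 0 reads in replicate 3. Its read positions differed between genotypes: 52.7% of its BERKO reads and 71.4% of its WT reads lay in the upstream feature at chr6:121250305 (mm9, plus strand), a pooled share that was not tested. With upstream and 5′ UTR features alone its log2 difference was -0.12. Serping1 averaged 54.7 ± 21.0 CPM in BERKO mice and 38.0 ± 27.9 CPM in WT mice (log2 0.53 ± 0.40, SE; adjusted p = 0.687 in edgeR), and all 5 BERKO mice lay above the WT median. The highest mouse of each genotype, replicate 4 in both, was at 89.6 CPM.

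Across the genotypes, 0 of the 10 genes passed the test. The expression filter kept 9 of the 10, without Ogn, and 7 of the 9 were higher and 2 lower in BERKO, with a median log2 change of 0.57 where that of all 9025 genes tested was -0.01 and 49.2% were higher. With no filter, 7 of 10 were higher, against 45.4% of 14126 genes. Over all genes, 0.0776% passed, and 9.92% had an unadjusted p under 0.05, against 2 of the 9 (Col1a1 and Col1a2). DESeq2 gave an adjusted p for 2 of these 9 (Dcn and Igf2), 0 of which passed, and none for the other 7, which its independent filtering set aside; 1 of the 9, Col1a2, had an unadjusted p under 0.05 there. For 0 of the 10 genes did the genotypes separate without overlap over mice, against 1.33% of genes tested. Of the reads of the 10 genes, Igf2 held 28.6%, Dcn 22.7%, Serping1 14.4% and Col1a1 10.0%, so the summed level mostly follows these genes. Summed over the 10 genes, BERKO mice 2 to 6 were at 421.0, 266.0, 633.8, 284.6 and 239.3 CPM, and WT mice ran from 195.0 through a median of 257.7 to 470.5 CPM. The means were 369.0 ± 163.8 CPM in BERKO and 276.3 ± 99.3 CPM in WT (SD, n = 5 and 6), a log2 ratio of 0.42, smaller than the log2 SD of 0.51 within genotypes. BERKO replicate 4 alone carried much of it, since the log2 ratio was 0.13 without that mouse.

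**Figure D3:**
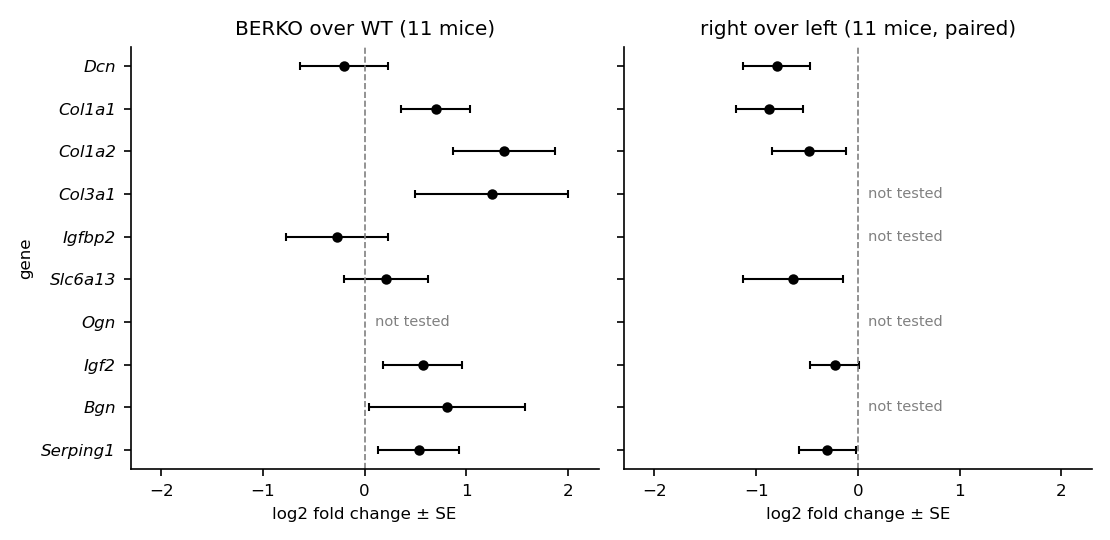
Log2 fold change with SE (horizontal axis) of each gene (vertical axis) for BERKO over WT on the left, from reads summed per mouse, and for right over left on the right, from biopsies paired by mouse, both from edgeR. Col1a2 is farthest to the right at 1.37 in the first panel, and the 6 genes tested in the second panel lie between -0.87 and -0.23; genes that did not pass the expression filter are marked as not tested.

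Within each side the genotypes gave the following. On the right 7 genes were tested, 7 were higher in BERKO and 0 passed, where 0.065% of 7696 genes passed; 0 of the 7 had an unadjusted p under 0.05, against 8.25% of all genes, and the median log2 change was 0.51, against -0.01 over all genes. On the left 6 were tested, 4 were higher and 0 passed, where 0% of 6616 genes passed, and 2 had an unadjusted p under 0.05, against 6.79% of all genes. These were Col1a2 at a log2 change of 1.77 ± 0.56 (SE; unadjusted p = 0.00434, adjusted p = 0.614 in edgeR) and Col1a1 at 0.93 ± 0.40 (0.0286 and 0.692). The median of the 6 was 0.30, against -0.00 over all genes. The difference between the sides was tested as an interaction for 8 of the genes, 0 passed where 0% of 8308 genes did, and 0 had an unadjusted p under 0.05, against 3.27% of all genes. With features in place of genes, 11 features of these genes were tested, 0 passed where 0.107% of 13128 did, and 1 had an unadjusted p under 0.05, against 11.6%: the 5′ UTR feature of Col1a2 (log2 1.55 ± 0.67, SE; adjusted p = 0.385 in edgeR).

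Between the sides, the summed level of the 10 genes was lower on the right in 9 of 11 mice, 4 of 5 of BERKO and 5 of 6 of WT, with a median log2 ratio of right over left of -0.69 (SD over mice 0.72). In BERKO replicates 2 to 6 the summed level was 568.8, 129.6, 613.4, 247.3 and 188.7 CPM on the right and 285.6, 436.1, 665.1, 375.2 and 308.8 CPM on the left. In WT it ran from 156.2 through 208.0 to 359.1 CPM on the right and from 218.6 through 332.9 to 623.3 CPM on the left. BERKO replicate 2 and WT replicate 6 were the exceptions, with log2 ratios of 0.99 and 0.16, and the ranges of the sides overlapped. By group mean the order from high to low was left of BERKO at 414.2 ± 152.1 CPM, left of WT at 356.3 ± 144.7, right of BERKO at 349.6 ± 225.0 and right of WT at 233.2 ± 72.8 (SD), and each neighbour in that order differed from the next by less than the larger SD of the pair. Without Dcn, the summed level was lower on the right in 8 of 11 mice. Gene by gene, Dcn was lower on the right in 9 of 11 mice, Col1a1 and Col1a2 in 8 each, Igf2 and Serping1 in 7 each and Slc6a13 in 6, while Col3a1, Igfbp2, Ogn and Bgn were lower on the right in 4 each.

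**Figure D4:**
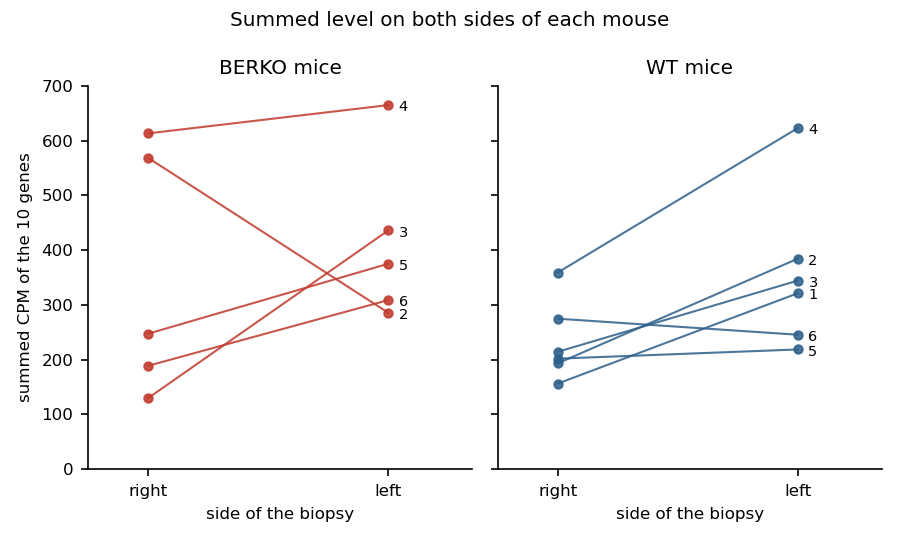
Summed CPM of the 10 genes (vertical axis, starting at 0) in the right and the left biopsy of each mouse, joined by a line, for 5 BERKO mice and 6 WT mice; numbers are replicates. The right biopsy is the lower one in 9 of 11 mice, and the largest difference the other way is in BERKO replicate 2, at 568.8 CPM on the right and 285.6 CPM on the left.

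The test paired by mouse took 6 of the genes. All 6 were lower on the right, with a median log2 change of -0.56, where that of 6651 genes was 0.01 and 52.2% were higher on the right; 0 of the 6 passed where 0% of all genes passed, and 2 had an unadjusted p under 0.05, against 6.01%. DESeq2 gave no adjusted p for any of the 6, and 2 of them, Col1a1 and Dcn, had an unadjusted p under 0.05 there as well. Col1a1 had the largest difference, -0.87 ± 0.33 (SE; unadjusted p = 0.0128, adjusted p = 0.643 in edgeR), and was lower on the right in 8 of 11 mice. Dcn was at -0.80 ± 0.33 (SE; 0.0231 and 0.673), lower on the right in 9 of 11 mice, including all 6 of WT. Col1a2 was lower on the right in all 5 BERKO mice and in 3 of 6 WT mice, with a log2 change over all mice of -0.48 ± 0.36 (SE; adjusted p = 0.920 in edgeR). Slc6a13 (-0.64 ± 0.49), Serping1 (-0.30 ± 0.28) and Igf2 (-0.23 ± 0.24) had smaller ratios of difference to SE. Left biopsies were shallower, with gene reads of 626499 to 1893400 (median 948140) on the right and 239058 to 1192106 (median 678535) on the left, and the part of depth in this difference was not tested. Markers of some other cells moved with the side as well: 10 of 12 astrocyte markers tested were lower on the right (median log2 -0.43), as were 6 of 8 endothelial markers (-0.36), 5 of 5 markers of pericytes and smooth muscle (-0.21) and 3 of 3 of border macrophages (-0.64), with 0 called. Their summed levels on the right and left were 4184.5 to 7596.7 and 5220.2 to 9058.9 CPM for astrocytes, and 348.6 to 790.4 and 267.2 to 903.7 CPM for endothelium. For pericytes and smooth muscle they were 228.7 to 771.7 CPM on the right and 318.6 to 972.2 CPM on the left, and for border macrophages 10.5 to 214.9 CPM on the right and 34.3 to 167.9 CPM on the left. Markers of microglia and myelin did not lean this way by much. Of 12 microglial markers tested 6 were higher and 6 lower on the right (median log2 -0.04). Of 11 myelin markers tested 4 were higher and 7 lower (-0.07). The part of all these cells in the side difference was not tested.

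The 10 genes varied together only in part. Over the 22 biopsies, 37 of 45 pairs had a positive Spearman's rho, 10 were at 0.5 or above and the median was 0.31; these are descriptions over biopsies that share mice and a denominator. Col1a1 and Igf2 were closest at 0.83 (0.68 within BERKO, 0.83 within WT), followed by Col1a2 with Igf2 at 0.71 (0.70 and 0.54) and Col1a1 with Col1a2 at 0.68 (0.52 and 0.53). Col3a1 and Bgn were at 0.65 (0.68 and 0.70), and Col1a2 was at 0.55 with Col3a1 (0.47 and 0.46) and 0.53 with Bgn (0.66 and 0.20). Without the 3 libraries that stood apart, Col1a2 was at 0.44 with Col3a1 and 0.34 with Bgn, so that these values above 0.5 rest on those libraries, and Col3a1 with Bgn was at 0.57. Slc6a13 was at 0.54 with Ogn. Against the sum of the other 9, Col1a1 reached 0.75 and Igf2 and Serping1 0.63 each, while Igfbp2 was at 0.06, Ogn at 0.17 and Dcn at 0.22. The highest sums were in the left and right of BERKO replicate 4, the left of WT replicate 4 and the right of BERKO replicate 2. Each of these biopsies held 6 or 7 of the 10 genes among that gene's 5 highest biopsies. The next by sum, the left of BERKO replicate 3, held 4, and the left of WT replicate 2 after it held 1. The sum is made of the same genes, so these counts describe the biopsies and do not test whether the genes vary together. Replicate numbers do not pair the genotypes.

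**Figure D5:**
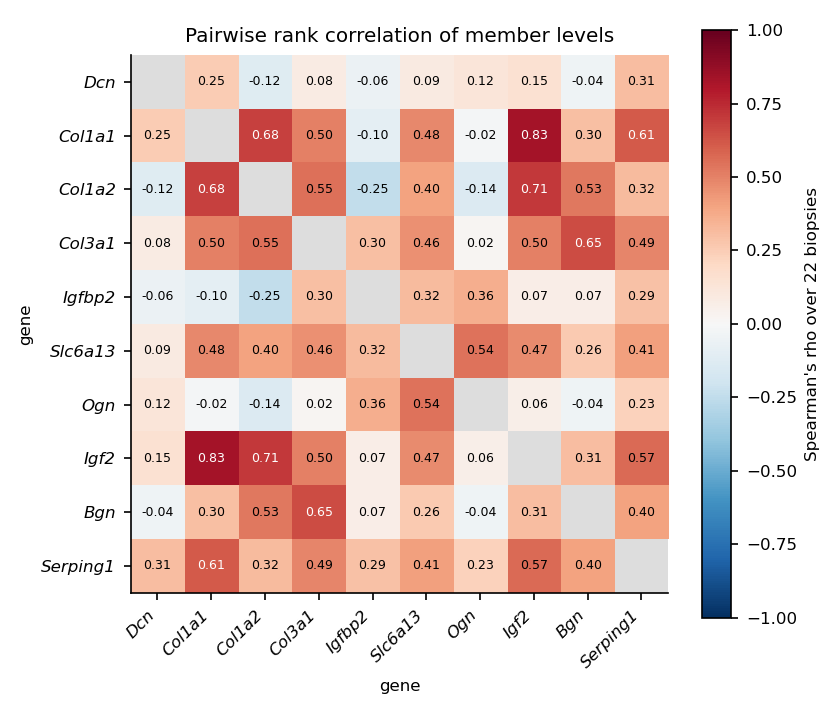
Spearman's rho over 22 biopsies for each pair of the 10 genes (both axes), coloured from -1 (blue) to 1 (red), with the value in each cell and the diagonal left grey. Col1a1, Col1a2 and Igf2 form the block of highest values, 0.68 to 0.83, and the rows of Dcn, Igfbp2 and Ogn are pale apart from Ogn with Slc6a13 at 0.54.

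Among 8300 other genes compared over the 22 biopsies, the 10 whose levels ranked most like the summed level were Slc22a6 and Slc1a3 (Spearman's rho 0.76 each), Fxyd1 and Gja1 (0.74 each), Acta2 and Ifi27l2a (0.73 each), Serpine2 and Pltp (0.70 each), and Fmod and Clu (0.69 each). Slc22a6, an organic anion transporter, and Fmod, fibromodulin, were in the list of further meningeal fibroblast genes. Slc1a3, the glial glutamate transporter, and Gja1, connexin 43, were in the astrocyte list, and Acta2, smooth muscle actin, was in the list of mural cells. Slc22a6 averaged 21.9 ± 7.58 CPM in BERKO mice and 10.9 ± 7.87 CPM in WT mice (log2 1.00 ± 0.45, SE; adjusted p = 0.465 in edgeR). Likeness depended on Dcn: with Dcn left out of the sum, a choice made after its values were seen, the 10 closest genes shared 1 with those above, Pltp. The closest was then Cit at 0.81, and the genes closest to Dcn alone, led by Ralgps2 at 0.78 and Rarres2 at 0.77, shared 0.

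Further meningeal fibroblast genes, a list also chosen with earlier results of these data known, leaned the same way as the 10. Of the 38 found, 21 passed the filter, all 21 were higher in BERKO, 0 passed the test, and the median log2 change was 0.31 (lowest adjusted p = 0.465 in edgeR). With no filter 29 of 38 were higher, against 45.4% of all genes. Besides Slc22a6, Slc6a20a, a proline transporter, averaged 34.2 ± 9.74 CPM in BERKO mice and 21.0 ± 12.7 CPM in WT mice (log2 0.69 ± 0.37, SE), and Thbd, thrombomodulin, 27.4 ± 9.52 CPM in BERKO mice and 15.3 ± 7.16 CPM in WT mice (0.86 ± 0.41). Between the sides 14 were tested and 13 were lower on the right, with a median of -0.50. The sum of the list without Ptgds, whose reads far exceed the rest, ran from 761.3 to 2722.1 CPM in BERKO biopsies and from 515.3 to 2606.4 CPM in WT biopsies, with 515.3 to 1038.0 CPM in the 3 libraries that stood apart and 761.3 to 2722.1 CPM in the other 19. Its rho with the summed 10 was 0.64, at 0.93 within BERKO and 0.35 within WT. Apod and Mgp had the highest medians left in this sum, 680.5 and 297.2 CPM, so it mostly follows them. Their own rho with the summed 10 was 0.36 for Apod and 0.63 for Mgp.

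Genes that work with the members gave the following, with 0 genes called in any of these lists between genotypes or between sides. Of 22 genes of collagen assembly 10 were tested between genotypes, 6 higher and 4 lower (median log2 0.08), and Pcolce, which enhances cleavage of procollagen, was at 0.90 ± 0.48 (SE). Between the sides Sparc, a collagen-binding glycoprotein, was at -0.63 ± 0.16 (SE; adjusted p = 0.305 in edgeR), and with no expression filter its adjusted p was 0.0297, the single call among these lists under that setting; it is named after its values were seen. The share of all genes called under that setting is not given here, so the call cannot be set against it. Sparc was at 430.3 to 883.0 CPM in the 3 WT libraries that stood apart, where its median over all biopsies was 385.2 CPM. Of 18 other collagens 3 were tested, 2 higher and 1 lower, with a median of 0.09. They were Col6a1 at -1.62 ± 1.12, Col9a3 at 0.13 ± 0.62 and Col18a1 at 0.09 ± 0.57 (SE), and with no filter 3 were higher and 7 lower (median -0.41). Of 8 other leucine-rich proteoglycans 2 were tested, Fmod at 0.20 ± 0.70 and Prelp at -0.07 ± 0.49 (SE). In the insulin-like growth factor system 5 of 14 listed genes were tested, 3 higher and 2 lower (median 0.29), with Igfbp5 at 0.51 ± 0.23 and Igfbp6 at 0.63 ± 0.56 (SE). Of 5 other GABA and taurine transporters 4 were tested (median 0.13), and of 15 other complement regulators 3 (median 0.12), with Clu, clusterin, at 0.44 ± 0.13 (SE; adjusted p = 0.255 in edgeR).

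Markers of several other cells in the biopsy leaned the same way between genotypes as the 10 genes, and their part in the results was not tested. Over all genes tested 49.2% were higher in BERKO. Endothelial markers were higher in BERKO in 9 of 10 tested (median log2 0.38), with summed levels of 433.6 to 903.7 CPM in BERKO biopsies and 267.2 to 777.3 CPM in WT biopsies. Markers of pericytes and smooth muscle were higher in 8 of 10 (median 0.46), at 402.0 to 972.2 CPM in BERKO and 228.7 to 604.6 CPM in WT, with 3 of 15 listed genes at 0 in every biopsy. Astrocyte markers were higher in 12 of 12 (median 0.27), at 5042.7 to 9058.9 CPM in BERKO and 4184.5 to 8599.0 CPM in WT, microglial markers in 12 of 13 (median 0.38), at 1231.5 to 1659.6 CPM in BERKO and 779.4 to 1413.3 CPM in WT, and myelin markers in 11 of 12 (median 0.31), at 5526.2 to 20298.2 CPM in BERKO and 1926.9 to 17266.1 CPM in WT. Border macrophages, which live among meningeal fibroblasts, had 4 of 11 markers tested, 3 higher (median 0.21), at 19.2 to 214.9 CPM in BERKO and 10.5 to 161.5 CPM in WT. Their defining receptors were sparse, with Lyve1 at 0 in 14 biopsies and Cd163 in 16. In the 3 WT libraries that stood apart, myelin markers summed to 1926.9 to 3230.1 CPM, against 4390.9 to 20298.2 CPM in the other 19. Microglial markers were at 779.4 to 1079.0 against 971.2 to 1659.6 CPM, and endothelial markers at 267.2 to 435.0 against 395.7 to 903.7 CPM. Mural markers were at 228.7 to 451.8 against 270.5 to 972.2 CPM. The lowest WT values of these lists were thus in the 3 libraries, while that of astrocytes, 4184.5 CPM, was not. The rho of each summed list with the summed 10 genes over 22 biopsies was 0.74 for border macrophages, 0.69 for astrocytes, 0.59 for endothelium, 0.50 for mural cells, 0.31 for microglia and 0.04 for myelin.

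Summed markers of cortical layers differed in how they ranked with the genes, and single genes of a list differed as well. The summed level of deep layer neuron markers had a rho of -0.63 with that of the 10 genes, -0.92 within BERKO and -0.41 within WT. Single deep layer genes ran from -0.57 for Tle4 to -0.01 for Cplx3. Upper layer markers had one of 0.38 and layer 1 interneuron markers one of 0.27. The upper layer sum mostly follows Lamp5, with a median of 949.2 CPM and a rho of 0.38. Rorb was at 0.09, Cux1 at 0.04, Cux2 at 0.03 and Calb1 at 0.01, and Otof, at 0 in 14 biopsies, was at 0.37. Deep layer markers were at 216.5 to 791.3 CPM on the right and 216.2 to 720.0 CPM on the left, and all 6 tested were higher on the right (median log2 0.32), with 1 of 10 listed genes at 0 in every biopsy. The 3 WT libraries that stood apart were at 427.5 to 791.3 CPM of deep layer markers, against 216.2 to 436.4 CPM in the other 19. Much of that deep layer sum was Crym, at 231.5 to 568.8 CPM in the 3 libraries. Not all deep layer genes were high there. Cplx3 was at 4.29 to 13.8 CPM (median over all biopsies 23.2), Fezf2 at 9.33 to 19.6 (15.8) and Tle4 at 42.9 to 100.8 (74.3). Upper layer markers were at 140.0 to 293.1 CPM in the 3 libraries, against 734.1 to 1601.1 CPM in the other 19. Layer 1 interneuron markers were at 216.6 to 307.5 CPM in the 3 libraries, against 42.6 to 137.4 CPM in the other 19. Most of this was Calb2, at 173.6 to 268.4 CPM in the 3 libraries (median over all biopsies 36.9). Reln was at 8.57 to 14.9 CPM there (median 5.44), and Cxcl14 was lower, at 18.7 to 25.8 CPM (median 33.2). The part of layer content in the levels of the 10 genes was not tested.

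Choroid plexus is the other main source of Igf2, and its markers were uneven. Aqp1 was at 0 in 21 of 22 biopsies, Folr1 in 19 and Otx2 in 18. Ttr, transthyretin, the most abundant transcript of that tissue, ran from 7.79 to 470.4 CPM and was highest in the right biopsy of WT replicate 1, where Igf2 had its lowest value of 25.8 CPM. Ttr had reads in all 22 biopsies, 2774 in total. Kcnj13, a potassium channel, was at 0 in 2 biopsies, differed between BERKO and WT by a log2 fold change of 1.30 ± 0.53 (SE; adjusted p = 0.425 in edgeR, which did not pass) and had a rho of 0.53 with the summed 10 genes. The summed choroid list was at 40.1 to 395.1 CPM in BERKO and 15.6 to 496.7 CPM in WT, and its rho with the summed 10 genes was -0.10. The part of choroid plexus in the Igf2 values was not tested. Ependymal markers had a rho of 0.23, blood markers 0.18 and striatal markers 0.36.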

How the data were processed

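Read counts at 112460 transcript 5′-end features were deposited by the authors for 64 columns, 22 biopsies in up to 3 lanes each, beside a table of the same counts as a ratio to the spike-in reads of the column, which the authors also deposited and which gave the spike-in totals here. Per the submitters' processing notes, Bowtie and TopHat2 2.0.12 were used with the mm9 genome; the counting settings, use of strand included, are not given in the sources used here. By the series' text, 1 BERKO animal was removed as an outlier.

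Lanes were summed as technical repeats (chi-square per gene 0.69 to 0.849 between lanes of a biopsy, at least 4.34 between biopsies of a group), and features with a single gene symbol were summed to 15297 genes; 5.22% of endogenous reads lay outside them. Counts were tested with edgeR 4.0.16 (quasi-likelihood, robust, TMM factors 0.950 to 1.09 per mouse, default expression filter, Benjamini-Hochberg over all genes tested, threshold 0.05, two-sided) in R 4.3.3. DESeq2 1.42.0, limma 3.58.1 and other settings were alternatives, and the fitting code was tested on simulated data. The mouse was the replicate: genotypes were compared on reads summed per mouse, and sides with the mouse as a block. The labels give a replicate number, and same-numbered right and left biopsies of a genotype were taken as 1 mouse. Deviations of right and left correlated at -0.12 to 0.343 over mice. For 5 of 11 right biopsies, the same-numbered left one was the most correlated, so these values do not settle the pairing. Likeness used log2(CPM + 1). SE is the log2 fold change over the square root of F.

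The 10 genes and all gene lists were chosen with earlier results of these data known. All 10 were to be named, with up to 3 genes of each other list by p and the 10 genes most like their sum. A gene that overlaps another annotated gene, or shares at least 80 bases at 95% identity with one (blastn 2.17.0), is given as uncertain: besides those in the text, Col1a2 matches 43 other genes, at most 86 bases (Gm16204), and overlaps Gm43921 on its strand, Slc6a13 matches 95 bases of Slc6a12 and overlaps Gm24855 on the opposite strand, and Igf2 overlaps Mir483. Total reads per biopsy ran from 249751 to 2018833.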

Additional observations from a re-analysis of the deposited data

Results flagged for a closer look

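Of 66 groups of biopsies or mice examined for a single distant value, 9 had one, where chance marks about 1 in 20 groups. In BERKO left biopsies, Col1a1 was at 92.8 CPM in replicate 4, with the next at 58.4. Slc6a13 was at 40.5 CPM in BERKO left replicate 3, with the next at 21.1. Ogn was at 4.86 CPM in BERKO left replicate 3 with the others at 0, and at 30.2 CPM in WT left replicate 3 with the next at 3.90. Col3a1 was at 0 CPM in BERKO left replicate 2, with the next at 11.3. WT replicate 4 was far above its group for 4 measures: Igf2 at 192.2 CPM on the left (next 79.5), Bgn at 28.0 CPM on the left (next 8.40), Serping1 at 89.6 CPM over the mouse (next 41.0) and the summed level of the 10 genes at 470.5 CPM over the mouse (next 264.4).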

How the results depend on the processing

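In all 90 alternatives that gave a count, 0 of the 10 genes passed (DESeq2 for the sides gave no adjusted p for them); the lowest adjusted p for BERKO against WT was 0.0811 (Col1a2, spike-in scaling, which shifted the median log2 change of all genes by 0.20). All counts stayed at 0, and the summed levels kept their direction and moved by less than 1 SD over mice, but several changed in size: the log2 ratio of BERKO over WT (0.42) was 0.14 as a median over mice and 0.62 with spike-in reads as the total, and that of right over left (-0.69) was -0.37 with the spike-in total. Leaving out mice gave log2 ratios of 0.13 to 0.64 for BERKO over WT and -0.70 to -0.64 for right over left. Alternatives added after seeing the data were the summed level without Dcn (0.57 and -0.51), the genotype ratio with the 3 outlying libraries of WT left out (0.37) and the side ratio without WT replicates 1 and 2 (-0.60). Of 260 values of single genes, 250 kept their direction and 10 of BERKO against WT turned, and 0 passed the threshold. The log2 change of Dcn was 0.24 when the 3 WT libraries were left out and 0.03 without WT replicate 1 (-0.60 to 0.03 over all mice left out), and that of Igfbp2 was 0.02 with spike-in scaling and 0.17 without WT replicate 4 (-0.44 to 0.17). That of Slc6a13 was -0.12 with upstream and 5′ UTR features alone, -0.03 without the 3 libraries, -0.34 in limma-voom and -0.00 without BERKO replicate 2 (-0.00 to 0.40), and that of Serping1 was -0.07 with upstream and 5′ UTR features alone. The cause was not tested. Same-numbered mice of the genotypes did not deviate together (correlations -0.03 to 0.05 over 5 pairs); with the replicate number as a block, mice 2 to 6, Slc6a13 was at -0.05 and 0 of the genes passed, as with no replicate block for the sides. Col1a2 at 0.84 under the block used fewer mice. Depth limits Ogn, Col3a1 and Bgn, with 80, 119 and 124 reads in all.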
